A study of Mus musculus with 6 samples.

Results

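IgG Fc receptors are the proteins with which macrophages bind the constant part of IgG antibodies. The 6 genes described here were chosen by symbol from a table of 21604 genes, and all 6 were found: Fcgr1, Fcgr3 and Fcgr4, which encode activating receptors, Fcgr2b, which encodes the inhibitory receptor, Fcer1g, which encodes the signalling chain shared by the activating receptors, and Fcgrt, which encodes the heavy chain of the neonatal receptor FcRn. RNA was sequenced from RAW264.7, a mouse macrophage-like line whose genotype the labels give as wild type and whose cell type they give as bone marrow macrophage. The LPS group of 3 libraries received 100 ng/mL lipopolysaccharide (LPS), an outer membrane molecule of bacteria that macrophages sense through Toll-like receptor signalling, over 24 h. The LPS plus PE-CUR group of 3 libraries received that dose of LPS over 24 h together with PE-CUR at a dose of 2 mg/mL, PE-CUR being the label's name in a series on Pickering emulsions (droplets stabilised by solid particles) loaded with curcumin, a plant polyphenol. Both groups carry LPS, and no untreated cells, empty emulsion or free curcumin are among the labelled groups, so each value below compares LPS plus PE-CUR with LPS. The design text asks about effects on inflammation and on osteoclasts. The labels do not state whether replicates are separate cultures, so the p-values reflect only how far these samples spread, and that spread may be technical. In RNA from whole cultures, fewer cells that express a gene and less of its RNA per cell cannot be told apart.

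When an immune complex clusters the activating receptors, kinases of the Src family phosphorylate the activation motif (ITAM) of the chain encoded by Fcer1g, and the kinase Syk binds it and starts phagocytosis, the oxidative burst and cytokine release. The chain is also needed to bring these receptors to the cell surface. The receptor encoded by Fcgr2b carries an inhibitory motif (ITIM) instead, which recruits the lipid phosphatase SHIP1 (Inpp5d) and raises the threshold of activation. FcRn does not signal in this way: with beta-2 microglobulin (B2m) as its light chain, it binds IgG in acidic endosomes and returns it to the surface.

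Of the 6 genes, 5 were lower in LPS plus PE-CUR, 0 were higher and Fcer1g did not pass (edgeR quasi-likelihood test, Benjamini-Hochberg adjusted p under 0.05 over 13014 genes tested). Fcgr3 fell most, 8.42-fold, followed by Fcgrt (3.17-fold), Fcgr4 (2.64-fold), Fcgr1 (2.57-fold) and Fcgr2b (1.69-fold). All 6 passed the filter on low counts, and all 5 that fell had groups that did not overlap. Large parts of the transcriptome differed: 63.4% of all genes tested passed, 32.7% lower and 30.8% higher, and 35.7% were lower with no overlap of the groups (69.0% had no overlap in either direction), so that a fall in any 1 receptor gene is not unusual here. At least 2-fold falls were called for 4 of the 6 genes and for 11.5% of all genes tested. The median log2 fold change of the 6 genes was -1.38, beside -0.03 for all genes tested.

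**Figure D1:**
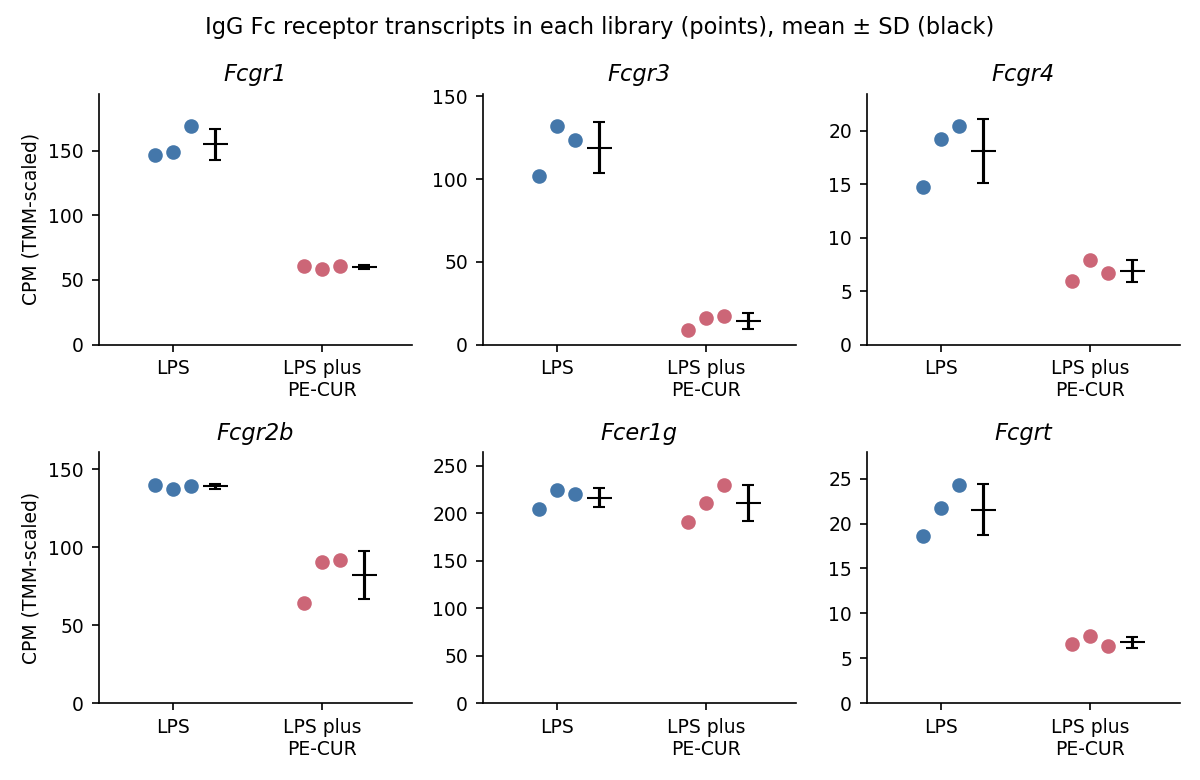
Level of each IgG Fc receptor gene in TMM-scaled CPM ( vertical axes, each starting at 0) in the 3 LPS and 3 LPS plus PE-CUR libraries (points), with mean ± SD in black. The groups are apart for 5 genes and overlap for Fcer1g, where all 6 libraries lie between 191 and 230 CPM.

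Fcgr3 encodes the low-affinity activating receptor (CD16), which needs the chain of Fcer1g. It lies on chromosome 1, 171051169 to 171065915 (build mm10, minus strand, protein coding). Its level in CPM (counts relative to the library total, scaled by TMM factors) was 102, 132 and 123 for replicates 1 to 3 under LPS alone. With PE-CUR it was 8.80, 16.1 and 17.6 for replicates 1 to 3. The lowest LPS library was thus several times above the highest with PE-CUR. The mean went from 119 ± 15.5 to 14.2 ± 4.70 CPM (SD, n = 3), a log2 fold change of -3.07 ± 0.30 (SE; edgeR adjusted p = 5.59e-04). Of the 13014 genes tested, 223 (1.71%) had a lower log2 fold change. In raw counts the 6 libraries held 3316, 4329, 4461, 286, 547 and 487 reads of Fcgr3, so counting error is small beside the spread between replicates.

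Fcgr1 encodes the high-affinity receptor (CD64), which binds single IgG molecules and also signals through the chain of Fcer1g. It lies on chromosome 3, 96282909 to 96293969 (minus strand, protein coding), away from the other members. Its level was 146, 149 and 169 CPM in the LPS libraries and 61.1, 58.4 and 61.0 CPM in those with PE-CUR. The PE-CUR libraries hardly differed among themselves. The mean fell from 155 ± 12.2 to 60.2 ± 1.54 CPM (SD, n = 3), a log2 fold change of -1.36 ± 0.07 (SE; edgeR adjusted p = 1.06e-07), and 8.11% of genes tested had a lower log2 fold change.

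Fcgr4 encodes an activating receptor of intermediate affinity for some IgG subclasses. It lies on chromosome 1, 171018926 to 171029761 (plus strand, protein coding), between Fcgr2b and Fcgr3. Fcgr4 stood at 14.7, 19.2 and 20.4 CPM in the LPS libraries and at 5.94, 7.95 and 6.68 CPM in those with PE-CUR, with no overlap. The mean fell from 18.1 ± 3.0 to 6.86 ± 1.02 CPM (SD, n = 3), a log2 fold change of -1.40 ± 0.15 (SE; edgeR adjusted p = 1.45e-05).

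Fcgr2b encodes the only inhibitory receptor among the 4 Fc gamma receptors. It lies on chromosome 1, 170960558 to 170976071 (minus strand, protein coding). Its level was nearly the same in the 3 LPS libraries, at 140, 137 and 139 CPM. With PE-CUR it stood at 64.4, 90.4 and 91.9 CPM, replicate 1 being the lowest of the group, as it also was for Fcgr3 and Fcgr4. The mean fell from 139 ± 1.37 to 82.2 ± 15.5 CPM (SD, n = 3), a log2 fold change of -0.76 ± 0.13 (SE; edgeR adjusted p = 0.00164). Without LPS plus PE-CUR replicate 1 the log2 fold change was -0.58.

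Fcer1g, the signalling chain itself, lies on chromosome 1, 171229572 to 171234349 (minus strand, protein coding). It stood at 205, 225 and 220 CPM in the LPS libraries and at 191, 211 and 230 CPM in those with PE-CUR. The groups overlapped, and the lowest and the highest library both belonged to the PE-CUR group. The means were 217 ± 10.3 and 211 ± 19.5 CPM (SD, n = 3; log2 fold change -0.04, 95% interval -0.20 to 0.12, edgeR adjusted p = 0.659). The interval lies above the 95% interval of each of the other 5 genes, the nearest being that of Fcgr2b (-1.07 to -0.45).

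**Figure D2:**
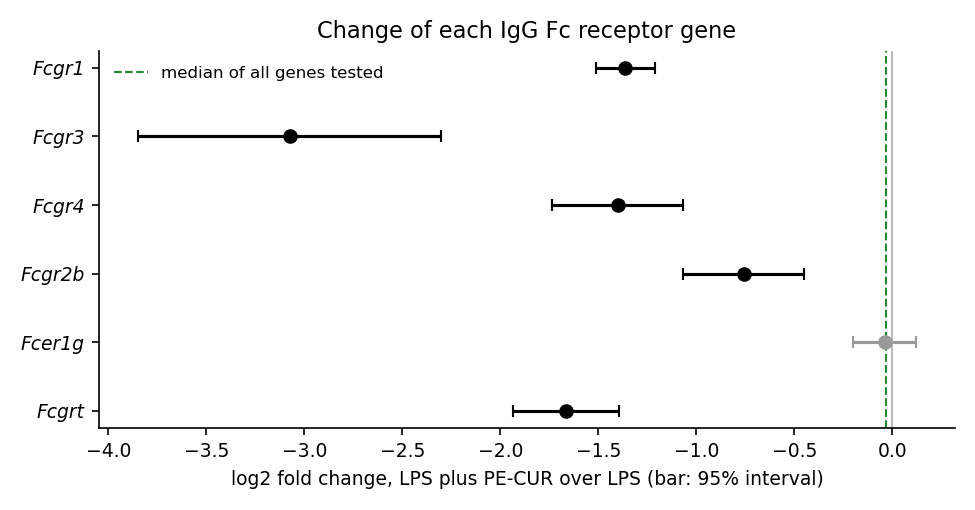
Log2 fold change of LPS plus PE-CUR over LPS (horizontal axis) for the 6 genes, with 95% intervals as bars; black marks genes with an adjusted p under 0.05, grey the gene that did not pass. The value of Fcgr3 (-3.07) lies farthest from the median of all genes tested (dashed line, -0.03), and the interval of Fcer1g includes that median.

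Fcgrt, the heavy chain of FcRn, lies on chromosome 7, 45092993 to 45103822 (minus strand, protein coding). It stood at 18.6, 21.7 and 24.3 CPM in the LPS libraries and at 6.59, 7.48 and 6.32 CPM in those with PE-CUR. The mean fell from 21.6 ± 2.86 to 6.80 ± 0.607 CPM (SD, n = 3), a log2 fold change of -1.66 ± 0.12 (SE; edgeR adjusted p = 8.91e-07). Its light chain B2m was among the abundant transcripts, with mean levels of 1189 CPM under LPS and 1266 CPM with PE-CUR added, and missed the threshold (edgeR adjusted p = 0.240, log2 fold change 0.09). Hepatocytes also express Fcgrt, and transcripts of hepatocytes were present in 4 libraries. The 7 measured markers of hepatocytes summed to 65.3, 45.6 and 60.5 CPM in LPS replicates 1 to 3 and to 0.154, 0.0589 and 78.9 CPM in LPS plus PE-CUR replicates 1 to 3, and 0 of the 7 passed the test. Fcgrt in LPS plus PE-CUR replicate 3, which held these transcripts, was the lowest of all libraries. With that library alone standing for its group the log2 fold change of Fcgrt was -1.72. A lone library gives no spread within its group, and that fit assumes that it varies as the LPS libraries do. The part of hepatocyte transcripts in the Fcgrt values was not tested.

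Levels of different genes can be compared only per length, for which the deposited FPKM values (counts divided by gene length and library total) were used. In LPS the order was Fcer1g (335 ± 16.2 FPKM, SD, n = 3), Fcgr2b (88.6 ± 1.20), Fcgr1 (60.9 ± 5.16), Fcgr3 (43.3 ± 5.62), Fcgr4 (14.8 ± 2.49) and Fcgrt (12.6 ± 1.72). The libraries of the last 2 overlapped, and those of the other neighbours in this order did not. In LPS plus PE-CUR it was Fcer1g (314 ± 23.6 FPKM), Fcgr2b (50.3 ± 8.44), Fcgr1 (22.8 ± 1.03), Fcgr4 (5.37 ± 0.690), Fcgr3 (4.94 ± 1.56) and Fcgrt (3.81 ± 0.308). There Fcgr3 overlapped with both of its neighbours. By FPKM, Fcgr3 thus stood well above Fcgr4 in each LPS library, and within the range of Fcgr4 or close to it with PE-CUR. The latter rests on the gene lengths behind FPKM, 2799 bases for Fcgr3 and 1250 for Fcgr4. In raw counts Fcgr3 exceeded Fcgr4 in LPS plus PE-CUR replicates 1 to 3 (286, 547 and 487 against 193, 270 and 185 reads).

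The summed FPKM of the 4 Fc gamma receptor genes was 196, 209 and 218 under LPS alone and 72.3, 88.0 and 89.9 with PE-CUR, 2.49-fold lower on average. Their composition differed as well. Fcgr2b made up 45.6%, 41.7% and 41.0% of this sum under LPS alone and 56.1%, 62.0% and 62.0% with PE-CUR. Fcgr3 made up 18.9%, 22.9% and 20.7% in LPS and 4.38%, 6.31% and 6.78% with PE-CUR. By FPKM the inhibitory receptor thus held the largest share in all 6 libraries, by a wider margin with PE-CUR. This rank rests on the gene lengths behind FPKM, 1598 bases for Fcgr2b and 2589 for Fcgr1. In raw counts Fcgr1 exceeded Fcgr2b in LPS replicates 1 to 3 (4766, 4891 and 6106 against 4559, 4510 and 5041 reads). With PE-CUR it was below Fcgr2b in each library. The shares of Fcgr1 (29.3 ± 1.35% and 27.7 ± 4.53%) and of Fcgr4 (7.08 ± 0.842% and 6.45 ± 0.618%) overlapped between the groups. Exact two-sided permutation tests over the libraries gave p = 0.1 for Fcgr2b and Fcgr3, the smallest that 3 against 3 can give, p = 0.6 for Fcgr1 and p = 0.4 for Fcgr4. Adjusted over the 4 shares the values were 0.2, 0.2, 0.6 and 0.533, and none of these could fall below 0.05 in this design.

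**Figure D3:**
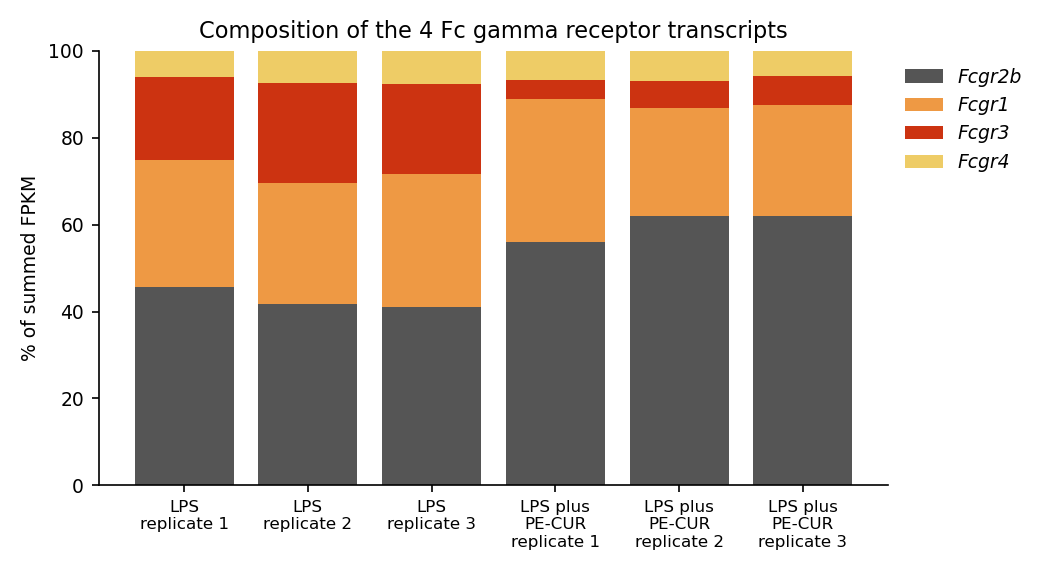
Share of each gene in the summed FPKM of Fcgr1, Fcgr2b, Fcgr3 and Fcgr4 (vertical axis, percent) in each of the 6 libraries (bars). The Fcgr2b part is larger and the Fcgr3 part smaller in each LPS plus PE-CUR library (Fcgr3 at most 6.78%) than in each LPS library (Fcgr3 at least 18.9%).

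The balance of activating over inhibitory receptors was followed within each library as a ratio of FPKM values, which needs no scaling between libraries. Fcgr3 to Fcgr2b was 0.415, 0.548 and 0.505 under LPS and 0.0781, 0.102 and 0.109 with PE-CUR, 5.10-fold lower (mean difference of log2 ratios -2.35). Fcgr1 to Fcgr2b differed less, from 0.687 ± 0.0535 to 0.465 ± 0.105 (SD, n = 3; 1.5-fold lower), and Fcgr4 to Fcgr2b went from 0.167 ± 0.0284 to 0.108 ± 0.0131 (1.54-fold lower). The 3 activating receptors summed were at 1.34 ± 0.131 of Fcgr2b in LPS and at 0.669 ± 0.0981 with PE-CUR (2.02-fold lower). Relative to their shared chain Fcer1g they went from 0.354 ± 0.0198 to 0.106 ± 0.00437 (3.35-fold lower). Whether the sum lies above or below Fcgr2b rests on the gene lengths behind FPKM (1598 bases for Fcgr2b, 2589 for Fcgr1, 2799 for Fcgr3). For the ratios of single genes, the fold difference does not depend on these lengths. Fcgrt to B2m went from 0.00889 ± 0.00109 to 0.00264 ± 0.000250 (3.36-fold lower). In each of the 6 ratios the groups did not overlap, and the exact two-sided permutation test gave p = 0.1 (0.1 adjusted over the 6), the smallest that 3 against 3 can give.

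Fcgr2b, Fcgr4 and Fcgr3 lie within 105358 bases of each other on chromosome 1, and Fcer1g lies farther along. From 100 kb before Fcgr2b to 100 kb beyond Fcer1g, 11 other protein-coding genes were tested, of which 4 were higher, 2 were lower and 5 did not pass. Of all genes tested, 30.8% were higher and 32.7% lower. The nearest tested neighbours of the 3 receptor genes were Dusp12, a phosphatase gene, which rose from 12.5 to 15.3 CPM (edgeR adjusted p = 0.0169, log2 fold change 0.29), and Cfap126, at 0.588 and 0.565 CPM. Apoa2, an apolipoprotein gene beside Fcer1g and 1 of the hepatocyte markers above, had means of 2.06 and 0.968 CPM and missed the threshold. The nearest tested genes on each side of Fcgr1 on chromosome 3 were the histone gene H2bc18, 12717 bases away, and Txnip, 263988 bases away. H2bc18 fell from 2.48 to 0.443 CPM and Txnip, which binds thioredoxin, from 942 to 563 CPM. Beside Fcgrt on chromosome 7, Nosip rose from 25.6 to 36.9 CPM. Of these neighbours on chromosomes 1 and 7, Dusp12 and Nosip rose, and Cfap126 and Apoa2, whose errors are wide, did not pass.

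**Figure D4:**
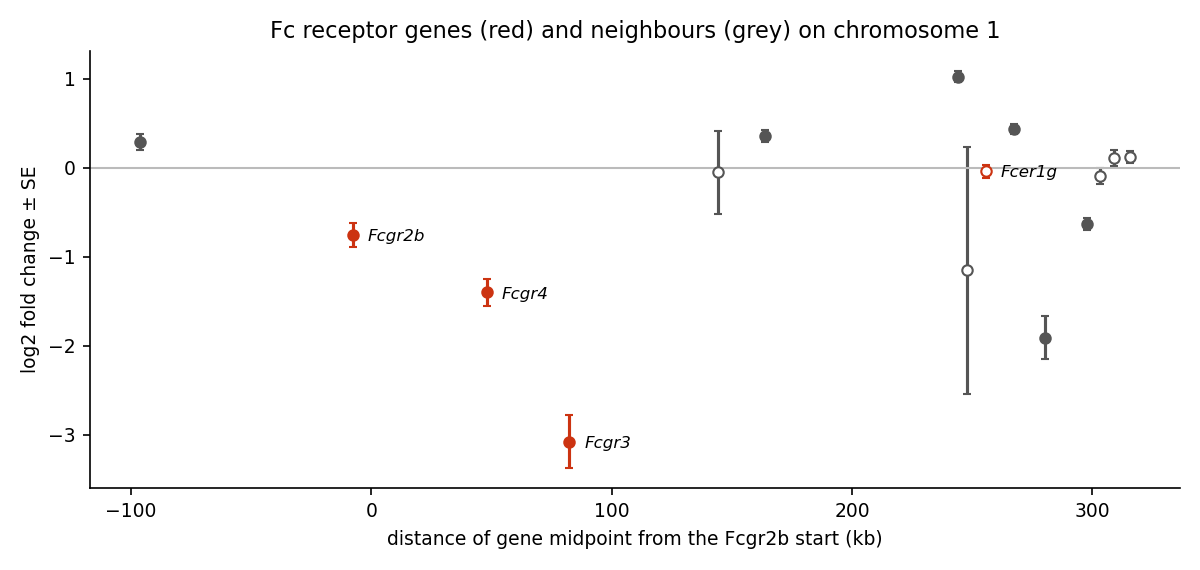
Log2 fold change ± SE (vertical axis) of the 15 tested protein-coding genes around the chromosome 1 receptors, by distance of the gene midpoint from the Fcgr2b start in kb (horizontal axis). Red points are receptor genes, grey points are neighbours, and open points did not pass; Fcgr2b, Fcgr4 and Fcgr3 are all below 0, with Dusp12 (0.29) before and Cfap126 (-0.05) after them.

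The start regions of the 3 activating receptors and of their signalling chain are shown. They run from 250 bases before to 50 bases after the annotated start (RefSeq, GRCm38.p6, which is mm10). Those of Fcgr2b and Fcgrt, which also fell, were searched in the same way but are not printed. Sequences run 5′ to 3′ on the strand of the gene. All 6 genes had an entry. For Fcgr3 the entry lies inside the annotated span of the gene given above, not at its 5′ end, whose window was not searched here; the windows of the other 5 genes lie at their annotated 5′ ends. Capitals mark matches, on either strand, to 4 short motifs: the GAS element of interferon gamma signalling (TTCNNNGAA), the core of the interferon-stimulated response element (GAAA, any 2 bases, GAAA), the core bound by the myeloid factor PU.1 (GAGGAA, read TTCCTC on the other strand) and the core of the antioxidant response element (TGACNNNGC).
Fcgr1, chr3:96293920-96294219, minus strand: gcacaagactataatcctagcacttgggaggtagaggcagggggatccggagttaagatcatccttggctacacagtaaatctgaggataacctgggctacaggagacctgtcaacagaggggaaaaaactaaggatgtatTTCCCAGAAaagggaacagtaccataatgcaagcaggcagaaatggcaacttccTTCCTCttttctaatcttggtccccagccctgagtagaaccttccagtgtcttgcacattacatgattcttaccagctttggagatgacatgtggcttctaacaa
Fcgr3, chr1:171059354-171059653, minus strand: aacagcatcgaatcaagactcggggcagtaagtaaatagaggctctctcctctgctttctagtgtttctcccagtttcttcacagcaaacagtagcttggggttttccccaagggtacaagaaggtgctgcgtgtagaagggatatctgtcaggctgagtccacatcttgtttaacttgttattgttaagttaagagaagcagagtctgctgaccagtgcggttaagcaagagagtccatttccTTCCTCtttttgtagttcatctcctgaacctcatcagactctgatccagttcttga
Fcgr4, chr1:171018676-171018975, plus strand: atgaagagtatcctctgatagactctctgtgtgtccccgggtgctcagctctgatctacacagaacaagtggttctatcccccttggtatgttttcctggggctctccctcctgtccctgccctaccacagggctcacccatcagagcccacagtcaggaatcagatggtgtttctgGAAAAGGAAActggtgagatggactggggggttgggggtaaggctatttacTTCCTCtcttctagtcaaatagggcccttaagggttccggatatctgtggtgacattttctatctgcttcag
Fcer1g, chr1:171234300-171234599, minus strand: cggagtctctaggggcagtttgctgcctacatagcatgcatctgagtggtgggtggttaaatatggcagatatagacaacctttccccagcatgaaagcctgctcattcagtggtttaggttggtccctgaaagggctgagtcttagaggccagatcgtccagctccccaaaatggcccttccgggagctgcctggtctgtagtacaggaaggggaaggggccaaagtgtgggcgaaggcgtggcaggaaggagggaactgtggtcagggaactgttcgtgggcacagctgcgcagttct

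The PU.1 core was present in the windows of Fcgr1, Fcgr3 and Fcgr4, beginning 55, 6 and 22 bases before the start used (for Fcgr3 the start inside its span). It was absent from those of Fcgr2b and Fcgrt, which also fell, and from that of Fcer1g, which did not pass. Of 32544 windows of this length, 28.1% hold it. The longest run shared by the Fcgr1 and Fcgr3 windows, TTCCTTCCTCTTTT, lies around this core and occurs in 5 of the 32544 windows. These 5 include the windows of Fcgr1 and of both Fcgr3 entries. Each pair of members was searched for its longest shared run, which had 7 to 10 bases in the other pairs. The rarity of this run thus follows in part from the search and was not tested. A GAS match was found for Fcgr1 (8.33% of windows), a match to the interferon-stimulated element for Fcgr4 (3.45%) and an antioxidant element match for Fcgrt (12.4%); the windows of Fcgr2b and Fcer1g held 0 matches to the 4 motifs. A match describes letters only and does not show binding. A further RefSeq entry for Fcgr3 overlaps the window shown and holds the same match. The gene also overlaps small tRNA and miRNA genes in its annotated span that have no row of their own in the count table.

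Fcgr2b and Fcgr3 are paralogs, and reads from stretches that they share could be split or lost in counting. Of 1733 distinct windows of 100 bases in the annotated Fcgr3 transcripts (GENCODE M21), 44 (2.54%) also occur in Fcgr2b, and 0 of those of Fcgr1, Fcgr4, Fcer1g and Fcgrt occur in another gene. Of the 5843 windows of Fcgr2b, 4.30% occur in another gene. The read length is not given in the sources used here.

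Other receptors known to use the chain of Fcer1g were followed in a list of 17 genes, of which 8 were tested. In this list 6 fell, 1 rose and 1 did not pass, which is 75.0% lower beside 32.7% of all genes tested, and the median log2 fold change was -1.28. The Cd300 family genes Cd300ld and Cd300c2 fell from 204 ± 9.05 to 90.5 ± 3.42 CPM (edgeR adjusted p = 1.10e-07, log2 fold change -1.17) and from 30.4 to 11.6 CPM (log2 fold change -1.39). Cd300lf fell from 38 to 20.9 CPM, and Clec4n, which encodes the fungal receptor dectin-2, from 3.09 to 1.11 CPM. The exception was Clec4e, encoding the receptor Mincle, which rose from 219 ± 5.32 to 293 ± 36.3 CPM (edgeR adjusted p = 0.00126, log2 fold change 0.42). Pira1 (1.12 and 0.252 CPM) and Pira2 (0.530 and 0.119 CPM) also fell, from few reads that near-identical family members may share; both were named after their values were seen.

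Other Fc receptors were few in these cells. Of 15 listed genes 10 had a row and 5 were tested, of which Trim21, a receptor for IgG in the cytosol, rose from 6.36 to 8.64 CPM (edgeR adjusted p = 0.0183, log2 fold change 0.44). Cd247, a chain that can stand in for that of Fcer1g in natural killer cells, fell from 0.781 to 0.193 CPM (edgeR adjusted p = 0.00801, log2 fold change -1.95), a level of 1 to 34 reads per library. Without LPS replicate 1 the Trim21 call ended. Fcrl1 (53.8 and 57.8 CPM), Pigr and B2m did not pass.

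Among 34 tested kinases and adaptors of activating signalling, 19 fell, 6 rose and 9 did not pass, which is 55.9% lower beside 32.7% of all genes tested (median log2 fold change -0.21). Lat, a membrane adaptor that links Syk to phospholipase C, fell from 25.1 to 3.98 CPM (edgeR adjusted p = 4.26e-06, log2 fold change -2.66). Src fell from 33.6 to 5.79 CPM (log2 fold change -2.54), Pik3cb, a catalytic subunit of phosphoinositide 3-kinase, from 266 to 117 CPM (log2 fold change -1.19) and Vav3, a guanine nucleotide exchange factor, from 144 to 90.4 CPM. The Ras activators went apart: Rasgrp4 fell from 7.62 to 1.99 CPM and Rasgrp3 rose from 208 to 547 CPM (log2 fold change 1.39). Lcp2, the adaptor SLP-76, rose from 319 to 493 CPM. Syk, given for its role and chosen with its value known, as was Lat, fell from 244 to 170 CPM (log2 fold change -0.52). Lyn, a Src family kinase also given for its role, stood at 307 and 284 CPM and did not pass.

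On the inhibitory side, 13 of 30 tested genes fell, 8 rose and 9 did not pass (median log2 fold change -0.16). That is 43.3% lower and 26.7% higher, beside 32.7% and 30.8% of all genes tested. The phosphatases and the receptors in this list went different ways. Ptpn6, the tyrosine phosphatase SHP-1, rose from 153 ± 4.63 to 439 ± 20.1 CPM (edgeR adjusted p = 2.53e-08, log2 fold change 1.52), and Inpp5d, the SHIP1 gene that Fcgr2b signals through and likewise chosen for its role, rose from 156 to 214 CPM (log2 fold change 0.45). Among the inhibitory receptors of this list, Cd300a fell from 141 ± 6.74 to 15.7 ± 0.435 CPM (edgeR adjusted p = 1.25e-09, log2 fold change -3.16), Pirb from 6.33 to 1.43 CPM and Cd200r1 from 71.6 to 36.6 CPM. Cblb, a ubiquitin ligase that restrains signalling, fell from 33.1 to 16.8 CPM. Clec12a, an inhibitory lectin receptor, rose from 8.41 to 23.5 CPM.

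The machinery of phagocytosis showed no common direction: of 45 tested genes 17 rose, 17 fell and 11 did not pass (median log2 fold change -0.05). That is 37.8% in each direction, near the 30.8% higher and 32.7% lower of all genes tested. With library size alone as the scaling the split was 12 higher and 19 lower. Cybb and Ncf1, subunits of the NADPH oxidase that makes the oxidative burst, rose from 212 to 722 CPM (edgeR adjusted p = 3.05e-08, log2 fold change 1.77) and from 161 to 513 CPM (log2 fold change 1.67). Pld1 and Pld2, the phospholipases D, fell from 43.9 to 22.8 and from 18.7 to 8.31 CPM. Gsn, which severs actin filaments, fell from 378 to 253 CPM and the adaptor gene Crk from 131 to 92.6 CPM.

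Of 24 genes known to regulate Fc receptor expression, 13 fell, 3 rose and 8 did not pass (median log2 fold change -0.37). That is 54.2% lower and 12.5% higher, beside 32.7% and 30.8% of all genes tested. Irf8, a myeloid transcription factor, rose from 71.7 to 124 CPM (log2 fold change 0.80). Spi1, which encodes PU.1, stood at 144 and 151 CPM and missed the threshold (edgeR adjusted p = 0.364, log2 fold change 0.07). Nr3c1, the glucocorticoid receptor, fell from 101 to 65.3 CPM, Ifnar2 from 80.4 to 48.1 CPM, Tgfbr1 from 25.5 to 15.4 CPM and Cebpb from 140 to 93.9 CPM.

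**Figure D5:**
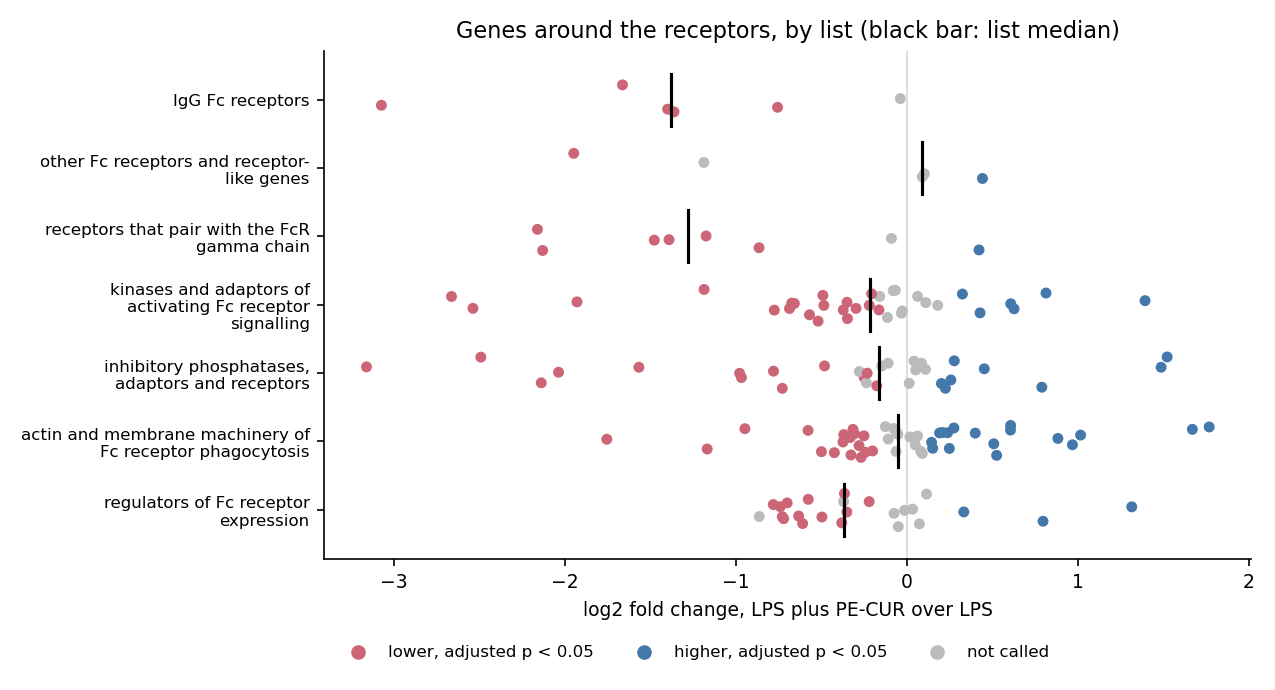
Log2 fold change of LPS plus PE-CUR over LPS (horizontal axis) of each tested gene in the 7 lists (rows), coloured by the edgeR call, with the list median as a black bar. The receptor list and the list of receptors that pair with the chain of Fcer1g have medians of -1.38 and -1.28, and the phagocytosis list has -0.05.

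Over the 6 libraries, the genes whose log2 CPM followed Fcgr3 most closely among those with a mean of at least 5 CPM were Lat (Pearson r = 0.9996) and Crk (0.9994). For Fcgr1 they were Bach1, a repressor of antioxidant genes, and Map3k5, a stress kinase (both 0.9998). For Fcgrt they were Mgat5 (0.9996) and Sccpdh (0.9991), for Fcgr4 Mea1 (0.9973) and Acp2 (0.9969), for Fcgr2b Cnep1r1 (0.9978) and Dhrs9 (0.9970), and for Fcer1g Tmem126b (0.9914) and Lgals1 (0.9828). These are descriptions over 6 points that share 2 treatment groups, so most of each correlation is the step between the groups. Among the members themselves, r was at least 0.9076 between any of the 5 genes that fell and at most 0.5172 between these and Fcer1g.

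Total counts were 28530750 to 35276533 per library. The labelled cell type was checked against markers: of 10 macrophage markers 8 were abundant in all libraries, with summed levels of 10429 to 11052 CPM in LPS and 9095 to 9776 CPM with PE-CUR, while Mrc1 and Cd163 were at or near 0. Adgre1, the F4/80 marker, was among the 3 macrophage markers that fell and Csf1r among the 2 that rose. Markers of B cells, which carry Fcgr2b, summed to 3.56 to 5.79 CPM in LPS and 1.0 to 1.20 CPM with PE-CUR, and 1 of 1 tested marker fell. The 5 neutrophil markers in the table summed to 4.09 to 5.39 CPM in LPS and 1.69 to 2.53 CPM with PE-CUR, and the 1 tested, S100a8, fell (edgeR adjusted p = 7.74e-04), while Ly6g, Elane and Mpo had at most 1 read in a library. The mast cell and basophil list rests on Gata2 alone, which fell from 1.35 to 1.80 CPM across the LPS libraries to 0.324 to 0.431 CPM (edgeR adjusted p = 1.75e-04). Natural killer cell markers summed to 0.307 to 0.762 CPM in LPS and 0.118 to 0.369 CPM with PE-CUR, which overlap, and 0 of 1 tested passed. Endothelial markers summed to 4.06 to 4.69 CPM in LPS and 1.84 to 3.57 CPM with PE-CUR. The T cell list, mostly Lck, was higher with PE-CUR, at 7.79 to 8.96 CPM beside 5.44 to 7.16 CPM. The dendritic cell list, driven by Itgax, which macrophages also express, summed to 14 to 19.3 CPM in LPS and 2.24 to 2.34 CPM with PE-CUR. Fibroblast markers were at most 2.74 CPM except in LPS plus PE-CUR replicate 2, at 12.8 CPM. Without that library, 5 receptor genes were again lower and 0 higher. A fit with LPS plus PE-CUR replicate 3 alone standing for its group was chosen after seeing the data. It leaves hepatocyte transcripts in every library compared. There the log2 fold changes of these 5 genes ran from -0.54 (Fcgr2b) to -2.70 (Fcgr3). A lone library gives no spread within its group. The part of the other cell types' transcripts in the receptor results was not tested.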

How the data were processed

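For 6 libraries and 21604 gene symbols the authors deposited raw read counts and, separately, FPKM values. The tools named are HTSeq, fastp, DESeq2 and SAMtools and the build is mm10, per the submitters' processing notes. Their versions, the aligner, the annotation and the strand setting were not given in the sources used here. FPKM equals count over gene length and library total in 100% of 105337 values above 0 (relative tolerance 0.001), so it is no separate measurement.

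Tests on the counts ran under R 4.3.3 in edgeR 4.0.16: filterByExpr by group (13014 genes kept), TMM factors (0.964 to 1.03), a robust quasi-likelihood fit with group as its only term over all 6 libraries, and Benjamini-Hochberg adjustment over all genes tested. SE is the log2 fold change over the root of F, and 95% intervals use the t distribution of the fit. The script was tested on simulated data. Likeness used log2(CPM + 0.5). The 6 genes and the gene lists were chosen with earlier results of these data known. Named from each list were the passing genes of smallest p, at most 4 in the commoner direction and 2 in the opposite one, besides the nearest tested genes on each side of a member and the 2 genes most like it; some genes this rule selects are not reported here. Alternatives used limma 3.58.1 and DESeq2 1.42.0.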

Additional observations from a re-analysis of the deposited data

How the results depend on the processing

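The falls of Fcgr1, Fcgr2b, Fcgr3, Fcgr4 and Fcgrt and the missing call of Fcer1g held in all 17 alternatives run: other scalings, filters and tools, FPKM with a pseudocount of 1 or 0.1, removal of mitochondrial and the 10 most abundant genes, each library left out, the replicate block, and, added after seeing the data, LPS plus PE-CUR replicates 1 and 2 left out. Log2 fold changes ranged from -3.23 to -2.70 for Fcgr3, -1.72 to -1.49 for Fcgrt, -1.49 to -1.27 for Fcgr4, -1.42 to -1.26 for Fcgr1, -0.83 to -0.54 for Fcgr2b and -0.10 to 0.14 for Fcer1g, whose sign was not stable.

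Same-numbered libraries of the groups did not deviate together (correlations -0.16, -0.28 and -0.05), so the numbers were not taken as pairs. With the replicate block 5 members were lower and 0 higher (Fcgr3 -3.12), and 3953 genes were lower and 3708 higher, beside 4252 and 4004 without it.

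The small list of other Fc receptors had 1 gene lower and 1 higher. Its lower count was 0 with a filter at a mean of 1 CPM, 2 with limma-voom and 0 with log2(FPKM + 1), and ranged from 1 to 2 with a library left out; its higher count then ranged from 0 to 2. With log2(FPKM + 0.1), 5 inhibitory genes were higher in place of 8. Without LPS plus PE-CUR replicates 1 and 2, 11 phagocytosis genes were lower in place of 17. The share of Fcgr3 fell by 19.1 percentage points in place of 15 when counts were not divided by length. Apart from the filter, which tests fewer genes, the cause was not tested. Depth limits genes under 1 CPM, such as Cd247.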
